A study of Mus musculus with 24 samples.

Results

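Inh-Lamp5 is the authors' name for a class of inhibitory neurons in the mouse amygdala, and it was taken here as every table column that carries that name. The class held 216 of 21648 nuclei profiled for RNA and 305 of 19119 nuclei profiled for chromatin accessibility by ATAC, an assay in which a transposase cuts open DNA. Another 6777 RNA nuclei and 8185 ATAC nuclei belonged to the other 7 inhibitory types, named Inh-Htr3a, Inh-Sst, Inh-Nxph2, Inh-Zfhx3, Inh-Lypd6b, Inh-Tshz1 and Inh-Drd2. Male DBA mice were compared with male BL6 mice, both inbred strains aged 10 to 16 weeks, with no treatment given in the labels. Each strain had 2 RNA and 2 ATAC libraries, numbered 2 and 3 in the tables, and tissue of about 2 animals was pooled per library, so differences between animals of a pool cannot be seen. RNA nuclei were sorted to 75% neuronal and 25% other nuclei with the antibody NeuN, while ATAC nuclei were sorted on a DNA dye alone, per the series' text. In the tables, excitatory and inhibitory types made up 52.8% and 69.3% of nuclei in DBA RNA libraries and 60.8% and 43.7% in BL6 RNA libraries, below the stated 75%. They made up 98.2% and 97.0% in DBA ATAC libraries and 98.0% and 97.5% in BL6 ATAC libraries, which had no neuronal sort. A further type that the authors label only as neuronal was left out of these shares, so they do not cover all neuronal nuclei. Because libraries were pools, p-values measure the spread between pools.

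Lamp5 interneurons release GABA, the main inhibitory transmitter, and in the cortex and amygdala many of them are neurogliaform cells, whose dense axons bathe nearby dendrites in GABA and act on them slowly. They are usually recognised by Lamp5, a membrane protein of the LAMP family, together with Reln, a secreted matrix protein, Ndnf, a secreted neurotrophic factor, and the peptide Npy. Many come from the caudal ganglionic eminence, the embryonic source they share with Vip and Htr3a interneurons.

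The class was small, and its depth limits what follows. The DBA RNA columns summed 29 and 51 nuclei to 486556 and 465969 counts, and the BL6 columns 90 and 46 nuclei to 868857 and 452755 counts. The DBA ATAC columns summed 46 and 48 nuclei to 880834 and 630005 counts, and the BL6 columns 75 and 136 nuclei to 1213541 and 1641126 counts. DBA library 2 had the fewest RNA nuclei and the most counts per nucleus, 16778, against 9137 in DBA library 3 and 9654 and 9843 in BL6 libraries 2 and 3. Levels are given as CPM, a column's counts scaled to a total of 1000000. In such summed columns, fewer nuclei of a kind and less RNA per nucleus cannot be told apart.

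The promoters below are shown because ATAC peaks of Inh-Lamp5 lie on them and because they differ in how far they set the class apart. Each is the 250 bases before the RefSeq start, 5′ to 3′ on the gene's strand, in build GRCm38.p6 (mm10). They lie at chr2:136057498-136057747 (Lamp5, plus strand), chr5:75574737-75574986 (Kit, plus), chr15:32244563-32244812 (Sema5a, plus), chr11:84957504-84957753 (Car4, plus) and chr9:121495695-121495944 (Cck, minus). Capitals mark the GC box GGGCGG on either strand, and overlapping matches run together.
Lamp5: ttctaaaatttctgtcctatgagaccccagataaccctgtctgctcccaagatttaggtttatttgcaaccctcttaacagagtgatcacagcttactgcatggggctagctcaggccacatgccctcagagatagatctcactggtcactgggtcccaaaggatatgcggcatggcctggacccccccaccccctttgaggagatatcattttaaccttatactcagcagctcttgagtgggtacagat
Kit: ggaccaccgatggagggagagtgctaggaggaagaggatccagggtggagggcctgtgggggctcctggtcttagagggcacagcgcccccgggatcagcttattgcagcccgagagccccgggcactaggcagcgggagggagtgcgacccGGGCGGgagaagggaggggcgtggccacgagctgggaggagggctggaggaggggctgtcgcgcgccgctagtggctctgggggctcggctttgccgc
Sema5a: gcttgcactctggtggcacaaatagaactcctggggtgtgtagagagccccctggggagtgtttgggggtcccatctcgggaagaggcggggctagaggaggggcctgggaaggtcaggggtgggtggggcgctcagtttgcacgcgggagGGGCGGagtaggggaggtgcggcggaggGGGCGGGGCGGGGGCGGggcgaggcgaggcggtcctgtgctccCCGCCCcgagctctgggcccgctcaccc
Car4: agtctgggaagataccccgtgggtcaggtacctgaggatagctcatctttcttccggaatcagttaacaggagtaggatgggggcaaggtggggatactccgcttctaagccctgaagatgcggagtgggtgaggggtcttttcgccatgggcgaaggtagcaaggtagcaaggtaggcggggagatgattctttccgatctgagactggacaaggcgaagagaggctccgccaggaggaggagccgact
Cck: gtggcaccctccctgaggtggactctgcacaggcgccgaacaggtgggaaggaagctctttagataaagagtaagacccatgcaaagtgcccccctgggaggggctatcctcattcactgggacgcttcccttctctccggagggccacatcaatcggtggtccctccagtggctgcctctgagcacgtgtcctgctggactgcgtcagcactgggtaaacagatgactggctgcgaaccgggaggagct
The GC box occurred 1 time in the Kit promoter and 5 times in the Sema5a promoter, and was not in the other 3 windows. It was found in 32.7% of the 32851 promoters searched over the same length. The homeodomain core TAATTA (4.84% of promoters), the TATA box TATAAA (12.4%), the CCAAT box CCAAT (33.8%) and the cAMP response element TGACGTCA (1.55%) were also searched on both strands and were in none of the 5 windows. GC content was 70.8% for Kit and 72.0% for Sema5a, against 48.8% for Lamp5, 56.4% for Car4 and 60% for Cck.

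The promoter peaks of Car4, Sema5a and Kit were highest in Inh-Lamp5, at 2.41, 1.61 and 1.35 times the next type, while those of Lamp5 and Cck stood at 1.05 and 0.888 times the highest other type. These ATAC values are descriptions with no test, since the authors formed the types from such nuclei. The peak on the Lamp5 promoter had 31.8 and 38.1 CPM in DBA libraries and 42.0 and 36.6 CPM in BL6 libraries of Inh-Lamp5, a mean of 37.1 ± 4.23 CPM (SD, n = 4), but Inh-Drd2 had 35.5 CPM and Inh-Tshz1 31.0 CPM there, and Inh-Htr3a 8.95 CPM. The peak on the Lamp5 promoter thus had nearly the same level in Inh-Drd2, in which Lamp5 RNA was 35.8 CPM against 252 CPM in Inh-Lamp5. The Kit promoter peak averaged 52.9 ± 10.1 CPM in Inh-Lamp5, 39.1 CPM in Inh-Htr3a and 7.49 CPM in Inh-Tshz1. The Sema5a promoter peak averaged 48.7 ± 10.6 CPM, against 30.2 CPM in Inh-Lypd6b, the next type. The Car4 promoter, of a membrane-bound carbonic anhydrase, stood furthest apart of the 5, at 26.01 ± 4.71 CPM, 2.41 times the 10.8 CPM of Inh-Nxph2. The Cck promoter averaged 17.3 ± 7.92 CPM in Inh-Lamp5 and 19.4 CPM in Inh-Htr3a, and 1.61 to 5.01 CPM in the other 6 types.

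**Figure D1:**
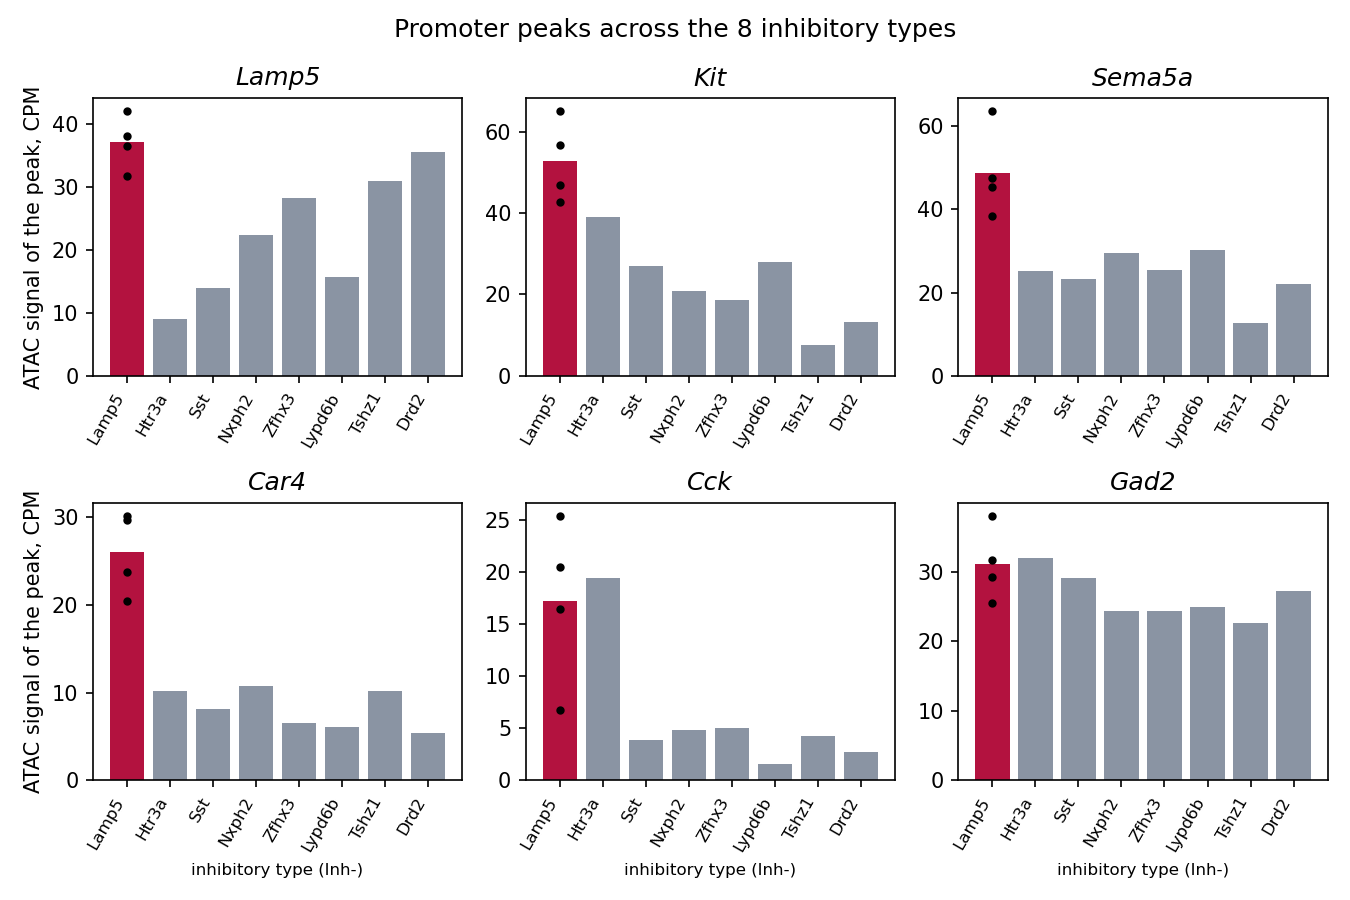
ATAC signal in CPM of the peak overlapping each of 6 promoters, with 1 bar per inhibitory type (mean of 4 libraries) and black points for the 4 Inh-Lamp5 libraries. The Car4 bar of Inh-Lamp5 is 2.41 times the next, whereas the Lamp5 promoter reaches 35.5 CPM in Inh-Drd2, and the promoter of Gad2 is open in all 8 types.

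For Kit and Hapln1, peaks inside the gene set the class further apart than the promoter peak did. In Kit, a receptor tyrosine kinase, the peak at chr5:75649260-75649604 had 28.4 and 23.8 CPM in DBA libraries and 26.4 and 23.8 CPM in BL6 libraries, 9.30 times the 2.75 CPM of Inh-Htr3a. Another Kit peak, at chr5:75619312-75620191, averaged 23.3 ± 6.44 CPM, 4.81 times the next type. In Hapln1, a protein that links hyaluronan to proteoglycans, the peak at chr13:89562647-89563408 had 18.2 and 25.4 CPM in DBA libraries and 23.9 and 26.2 CPM in BL6 libraries, 7.82 times Inh-Htr3a. Hapln1's own promoter peak, by contrast, had 16.0 CPM in Inh-Lamp5 and 15.6 CPM in Inh-Lypd6b. A peak inside Nxph1, a secreted ligand of neurexins, reached 11.2 ± 2.73 CPM and 10.7 times the next type, on 6 to 22 counts per library. Over all 13689 peaks with 10 or more counts in each of the 4 columns, 263 (1.92%) reached 3 times the next inhibitory type. The strongest of them, at chr3:139710399-139710936, 100 bases from Stpg2, had 16 counts in each DBA library and 27 and 35 in the BL6 libraries, 26.9 times the next type.

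RNA levels of the markers given with the class are descriptions too. In each of the 4 libraries Lamp5 and Gad2 were higher in Inh-Lamp5 than in all 7 other inhibitory types. The authors formed the types from such nuclei and named this one Inh-Lamp5, so these levels cannot test the label. Lamp5 had 271 and 243 CPM in DBA libraries and 230 and 265 CPM in BL6 libraries, 4.77 times the 52.9 CPM of Inh-Tshz1, and Gad2, an enzyme that makes GABA, averaged 675 CPM, against 279 CPM in Inh-Drd2. Of 30 genes listed for Lamp5 interneurons, 13 were highest in Inh-Lamp5 among the 8 types, where 24.4% of the 9812 genes with 3 or more counts in each column were. The listed genes did not have to pass that filter, so the shares are not like for like. Reln averaged 2280 CPM here and 565 CPM in Inh-Htr3a. Cplx3, a complexin that regulates vesicle fusion, averaged 25.2 CPM here and 0.716 CPM in Inh-Htr3a. Npy, at 224 CPM, was below the 326 CPM of Inh-Sst.

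Markers of the neighbouring classes were low. Htr3a, a serotonin-gated channel subunit, had 0 counts in every Inh-Lamp5 column, and Vip had 0 and 1 counts in DBA libraries and 3 and 0 in BL6 libraries. Sst averaged 17.0 CPM, against 1045 CPM in Inh-Sst. Prox1, a transcription factor of caudal-eminence interneurons, had 74.0 and 131 CPM in DBA libraries and 148 and 115 CPM in BL6 libraries. Sox6 and Lhx6, factors of the medial eminence, varied between libraries of one strain. Sox6 had 92.5 and 17.2 CPM in DBA libraries and 4.60 and 55.2 CPM in BL6 libraries, and Lhx6 had 20.6 and 2.15 CPM in DBA libraries and 6.91 and 17.7 CPM in BL6 libraries. DBA library 2 and BL6 library 3 were thus the higher library of their strain for both genes.

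Among the 2959 genes with 50 CPM or more in each column, Hapln1 set Inh-Lamp5 furthest apart, with 366 and 232 CPM in DBA libraries and 185 and 192 CPM in BL6 libraries, 23.3 times the 10.5 CPM of Inh-Sst. Has2os, a transcript antisense to a hyaluronan synthase gene, averaged 102 ± 17.1 CPM, 13.8 times Inh-Lypd6b. Vcan, a proteoglycan that binds hyaluronan, had 123 and 75.1 CPM in DBA libraries and 76.0 and 130 CPM in BL6 libraries, 8.78 times Inh-Zfhx3. Vcan also marks oligodendrocyte precursors, and Pdgfra, the receptor that defines those cells, had 22.6 and 8.58 CPM in DBA libraries and 4.60 and 42.0 CPM in BL6 libraries. DBA library 2 and BL6 library 3 were again the higher, as for Sox6 and Lhx6. All 6 listed precursor genes, Vcan included, summed to 158 and 88.0 CPM in DBA libraries and 84.0 and 181 CPM in BL6 libraries. Most of these sums was Vcan itself, and Olig1 and Olig2 had 0 to 2 counts per library. In Inh-Htr3a the 6 precursor genes summed to 2.495 to 22.6 CPM per library. The part of such nuclei in the Vcan level was not tested. Fgf13, an intracellular protein that modulates sodium channels, had 2958 and 2676 CPM in DBA libraries and 3223 and 3002 CPM in BL6 libraries, 8.67 times Inh-Sst. Kit averaged 830 ± 93.1 CPM, 5.84 times Inh-Htr3a. Sema5a, a membrane-bound semaphorin, averaged 493 ± 42.6 CPM, 4.78 times Inh-Nxph2. Myo3b, Nyap2, Crispld1, Plekhg1, Colec12, Il1rap, Ndnf and Pdlim5 completed the 15 leading genes, at 4.66 to 10.6 times the next type. Of 30 listed matrix and guidance genes, 9 were highest in Inh-Lamp5, near the 24.4% of genes that were. Of the 2959 genes, 40 (1.35%) reached 3 times the next type. The 15 leaders were picked for these ratios, which therefore carry no test.

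**Figure D2:**
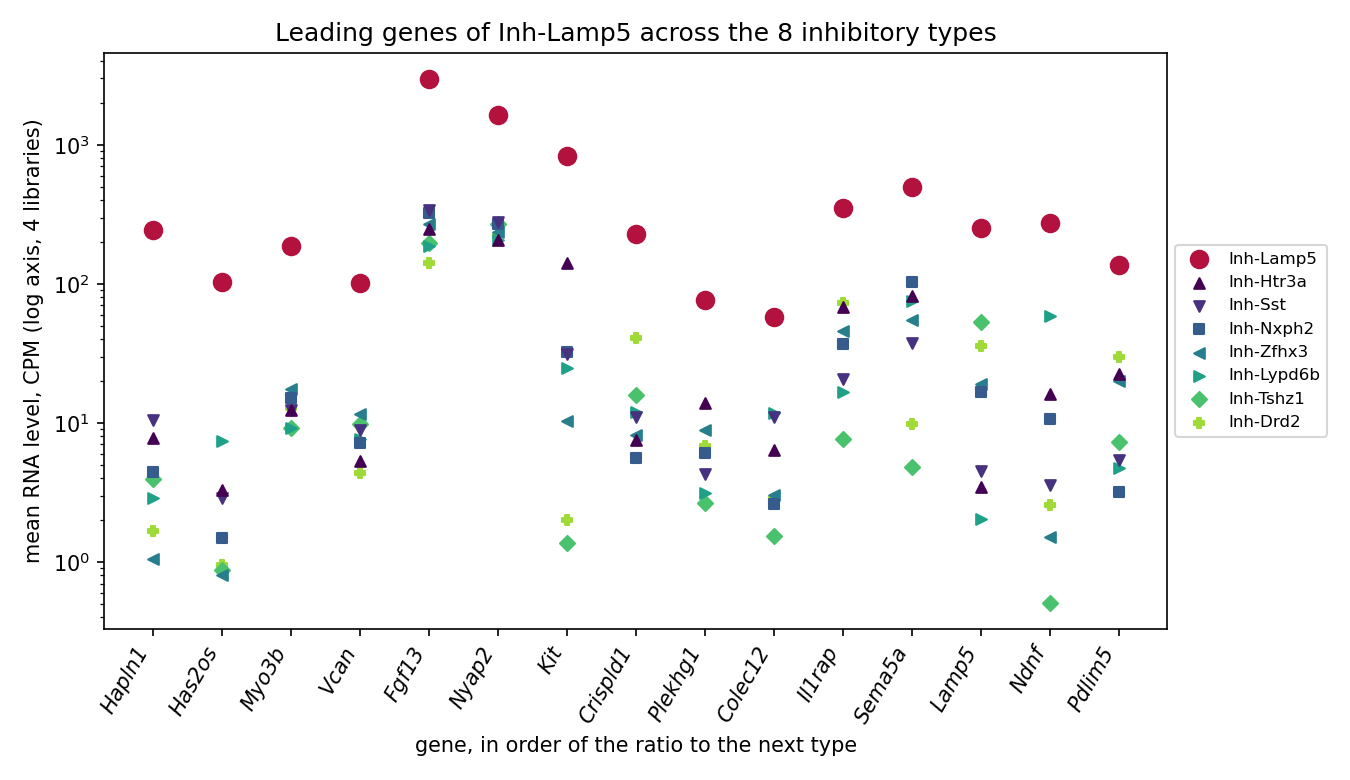
Mean RNA level in CPM (log axis, 4 libraries) of the 15 leading genes in each of the 8 inhibitory types. The Inh-Lamp5 circle is the top point for every gene, from 23.3 times the next type for Hapln1 to 4.66 times for Pdlim5.

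Over those 2959 genes, the mean profile of Inh-Lamp5 ranked most like Inh-Htr3a (Spearman's rho 0.801 across genes) and Inh-Sst (0.800), followed by Inh-Nxph2 (0.785), Inh-Zfhx3 (0.752), Inh-Lypd6b (0.748), Inh-Tshz1 (0.707) and Inh-Drd2 (0.674). The types share libraries and differ in depth.

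Receptor genes gave a mixed picture. Of 28 listed serotonin, acetylcholine, cannabinoid, dopamine and adrenergic receptor genes, 5 were highest in Inh-Lamp5. Of 18 listed ionotropic glutamate receptor genes 3 were, and of 16 listed GABA-A and GABA-B receptor genes 3 were. Each list was below the 24.4% of filtered genes given above. The genes that follow are thus single examples and not a trait of their lists. Adra1a, an adrenergic receptor that responds to noradrenaline, averaged 291 CPM, against 114 CPM in Inh-Sst. Grin2a, an NMDA receptor subunit, averaged 3346 CPM against 1346 CPM in Inh-Tshz1, and Grik1, a kainate receptor subunit, 2486 CPM against 1015 CPM in Inh-Nxph2. Gabbr2, a subunit of the slow GABA-B receptor, averaged 753 CPM against 274 CPM in Inh-Sst. Gabrd, the delta subunit of extrasynaptic GABA-A receptors, averaged 32.1 CPM and was higher in Inh-Drd2, at 81.7 CPM.

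The share of Inh-Lamp5 among inhibitory nuclei was lower in DBA by value, but 2 libraries against 2 cannot reach significance. It was 3.08% and 2.20% in DBA RNA libraries, against 3.33% and 4.47% in BL6 RNA libraries, and 2.59% and 2.30% in DBA ATAC libraries, against 4.91% and 4.38% in BL6 ATAC libraries. The strains did not overlap in either assay. Exact 95% binomial intervals were 2.07 to 4.40% and 1.64 to 2.88% in DBA RNA libraries, and 2.68 to 4.08% and 3.29 to 5.92% in BL6 RNA libraries. In ATAC they were 1.90 to 3.44% and 1.70 to 3.04% in DBA libraries, and 3.89 to 6.12% and 3.69 to 5.16% in BL6 libraries. Means were 2.64% ± 0.625 in DBA and 3.90% ± 0.811 in BL6 for RNA, and 2.45% ± 0.204 in DBA and 4.65% ± 0.376 in BL6 for ATAC (SD, n = 2 each). The two-sided exact permutation test gave p = 0.3333 in each assay, the smallest value possible. As a share of excitatory and inhibitory nuclei together, the RNA libraries overlapped, with 1.92% and 1.17% in DBA and 1.83% and 2.38% in BL6 (exact permutation p = 0.667). A share says nothing of the number of cells in the tissue.

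**Figure D3:**
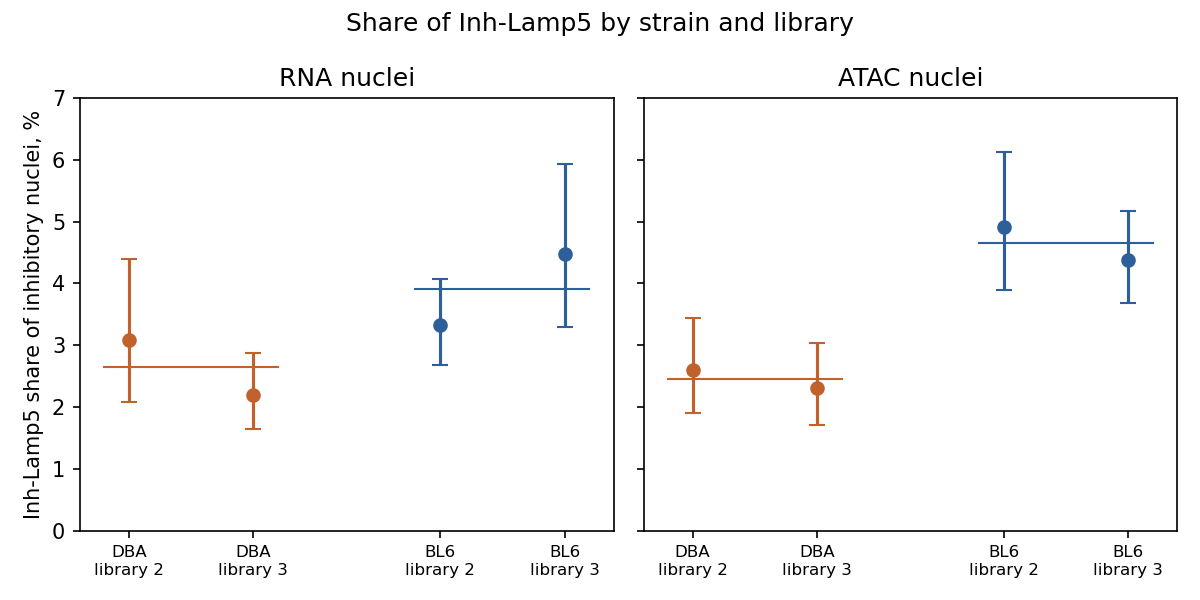
Inh-Lamp5 nuclei as a percentage of inhibitory nuclei in each library, for RNA on the left and ATAC on the right. Points carry exact 95% binomial intervals, which cover counting error only, and lines are strain means. In the ATAC panel the DBA points, at 2.59% and 2.30%, lie below the BL6 points, at 4.91% and 4.38%.

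Strains were compared within Inh-Lamp5, first over the genes that mark it. Differences are log2 fold changes of DBA over BL6 with their standard errors, from edgeR's quasi-likelihood test with Benjamini-Hochberg adjustment over all 7514 genes tested. At an adjusted p under 0.05, 132 genes (1.76%) were called, and 787 (10.5%) had an unadjusted p under 0.05. Of the called genes, 30 (0.399%) rose and 102 (1.36%) fell in DBA. Of the 30 listed Lamp5 interneuron genes, 22 passed the filter on low counts. Of these 0 rose, 1 fell and 21 were not called, 8 had an unadjusted p under 0.05, a larger share by value than the 10.5% over all genes, and their median log2 fold change was 0.18, beside 0.01 over all genes tested. Lamp5, with the per-library levels given above, differed by 0.09 ± 0.18 on the log2 scale (edgeR adjusted p = 0.945). Kit differed by 0.22 ± 0.17 (edgeR adjusted p = 0.736) and Gad2 by 0.32 ± 0.17 (edgeR adjusted p = 0.547).

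The gene that fell was Car4, at chr11:84957754-84966054. Car4 had 20.6 and 36.5 CPM in DBA libraries, against 86.3 and 106 CPM in BL6 libraries. The libraries of the strains were well apart, and Car4 fell by 1.70 on the log2 scale (SE 0.31, edgeR adjusted p = 0.0112). DESeq2 gave Car4 a log2 fold change of -1.72 and an adjusted p of 0.182, which is not a call. The peak on the Car4 promoter printed above had 20.4 and 30.2 CPM in DBA libraries and 29.7 and 23.8 CPM in BL6 libraries, which overlap.

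Reln, at chr5:21884454-22344705, missed the threshold in edgeR and passed it in other settings. Reln had 2801 and 3054 CPM in DBA libraries, against 2073 and 1193 CPM in BL6 libraries, without overlap (log2 fold change 0.86 ± 0.22, edgeR adjusted p = 0.0856), while DESeq2 gave an adjusted p of 0.0211. Npy had 175 and 440 CPM in DBA libraries and 146 and 137 CPM in BL6 libraries (log2 fold change 1.13 ± 0.36, edgeR adjusted p = 0.270), and DBA library 3 alone was far above the rest. Npy passed the threshold with no filter on low counts (edgeR adjusted p = 4.17e-05). In fits that kept DBA library 3, its log2 fold change was 1.62 without DBA library 2, 1.16 without BL6 library 2 and 1.08 without BL6 library 3. The value without DBA library 3 is not given here. Each of those fits has only 1 library of a strain and does not see the spread between its pools. Of the 15 leading genes only Crispld1, a secreted cysteine-rich protein, was called. It had 148 and 124 CPM in DBA libraries, against 375 and 272 CPM in BL6 libraries, and fell by 1.23 on the log2 scale (SE 0.22, edgeR adjusted p = 0.00811).

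**Figure D4:**
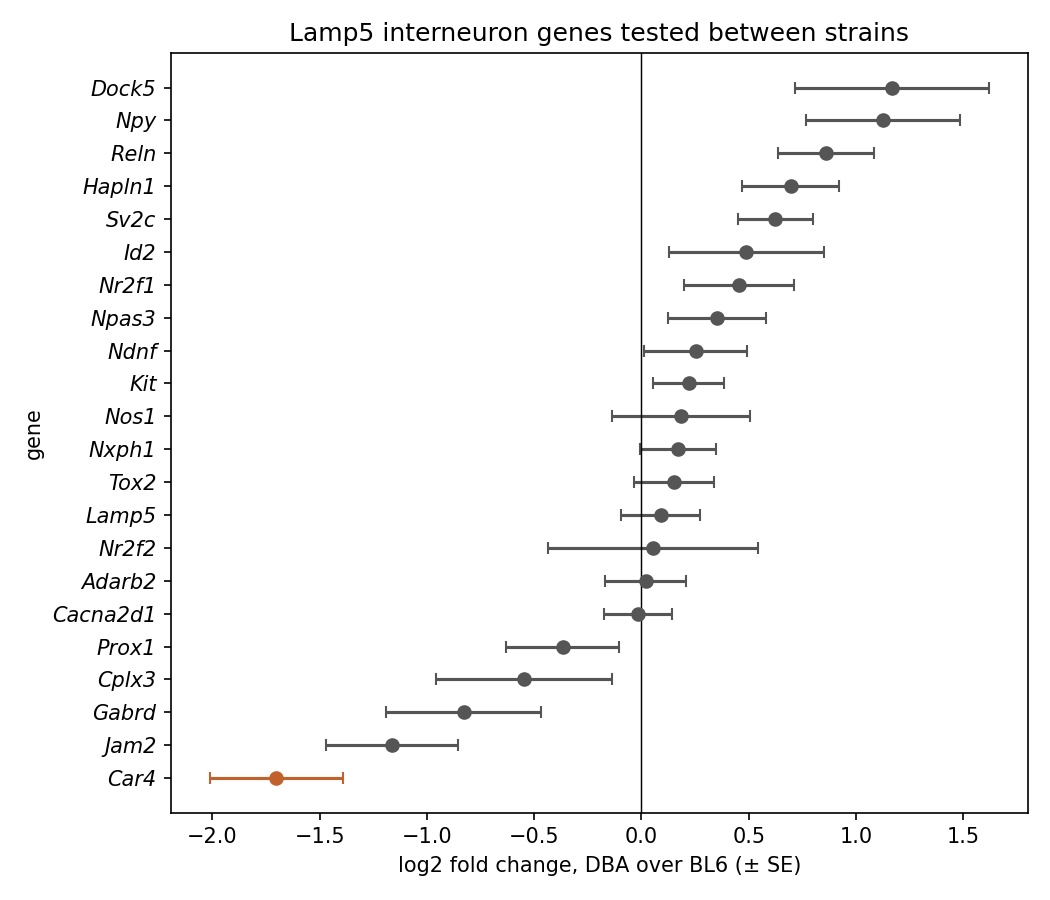
Log2 fold change of DBA over BL6 (point) with its standard error (bar) for the 22 Lamp5 interneuron genes tested. Car4, in orange at -1.70, is the only gene past the threshold, and Lamp5 itself lies at 0.09.

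Lists of receptor, channel and synapse genes were read against the 1.76% called and the 10.5% at an unadjusted p under 0.05 over all genes tested. Against that background, lists of this length hold about 0 or 1 call, so the counts below say nothing particular about them. Of 13 tested GABA-A and GABA-B receptor genes and of 15 tested ionotropic glutamate receptor genes, 0 were called by edgeR, with medians of -0.06 and 0.12, and 2 and 3 had an unadjusted p under 0.05. Of 21 tested neurexin, neuroligin and GABA synapse genes and of 24 tested matrix and guidance genes, 0 were called by edgeR either, with 4 in each list at an unadjusted p under 0.05, although DESeq2 called Reln of the matrix list, as given above, and Grik1 of the glutamate list (log2 fold change 0.64, DESeq2 adjusted p = 0.0210). Some members also passed in edgeR under other settings. Cntnap5b, of the neurexin superfamily, had 121 and 34.3 CPM in DBA libraries and 20.7 and 8.83 CPM in BL6 libraries. Its log2 fold change was 2.28 ± 0.60 (edgeR adjusted p = 0.130). It was called with no filter on low counts (edgeR adjusted p = 3.85e-07) and with the library number as a block (0.0115). DBA library 2 alone was far above the rest. Fits without DBA library 3, BL6 library 2 or BL6 library 3 all kept it and gave log2 fold changes of 1.93 to 3.13. The value without DBA library 2 is not given here. Such a fit has only 1 library of a strain and does not see the spread between its pools. Gabrg3, a GABA-A receptor subunit, had a log2 fold change of -0.86 without DBA library 2. Grin3a, a glutamate receptor subunit, was called with no filter and over every gene of the table (edgeR adjusted p = 0.0203 and 0.0399). Of 5 tested genes from a list of known behaviour-linked strain variants and of 3 tested immediate early genes, 0 were called by edgeR or DESeq2, with 0 and 1 at an unadjusted p under 0.05. Of 24 tested potassium channel genes, 1 fell. This was Kcnip4, which binds A-type potassium channels, with 1558 and 1906 CPM in DBA libraries and 4158 and 2657 CPM in BL6 libraries. The libraries did not overlap, and Kcnip4 fell by 0.96 on the log2 scale (SE 0.21, edgeR adjusted p = 0.0386). Without BL6 library 2 the Kcnip4 log2 fold change was -0.61 (edgeR adjusted p = 0.478).

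Of the 11 tested serotonin, acetylcholine, cannabinoid and related receptor genes, 1 rose. This was Chrna7, the alpha7 subunit of a calcium-permeable nicotinic acetylcholine receptor, at chr7:63098692-63212526. Chrna7 had 358 and 290 CPM in DBA libraries, against 110 and 133 CPM in BL6 libraries. Both DBA libraries were above both BL6 libraries, and the log2 fold change was 1.46 ± 0.21 (edgeR adjusted p = 0.00169). The call held under all 12 other settings tried. In the other 7 inhibitory types Chrna7 was not called, with log2 fold changes of -0.31 in Inh-Htr3a, -0.28 in Inh-Tshz1, -0.05 in Inh-Nxph2, 0.08 in Inh-Lypd6b, 0.37 in Inh-Zfhx3, 0.41 in Inh-Sst and 0.87 in Inh-Drd2. Summed over those types it had 56.3 and 48.8 CPM in DBA libraries, against 52.2 and 60.4 CPM in BL6 libraries. A fit of both with the library as a block put the strain difference of Inh-Lamp5 above that of the rest by 1.49 ± 0.21 on the log2 scale (edgeR adjusted p = 7.87e-09).

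Of 4 tested neuropeptide genes, 1 rose. This was Cck, the peptide cholecystokinin, at chr9:121489824-121495694, with 140 and 219 CPM in DBA libraries, against 31.1 and 42.0 CPM in BL6 libraries. Both DBA libraries were well above both BL6 libraries, and the log2 fold change was 2.36 ± 0.29 (edgeR adjusted p = 0.000593). Cck also rose in Inh-Htr3a, by 1.16 ± 0.20 (edgeR adjusted p = 0.000692), and fell in Inh-Nxph2 by 0.72, in Inh-Zfhx3 by 0.87 and in Inh-Sst by 1.02 (edgeR adjusted p = 0.0407, 0.0156 and 0.0337). The same list of Vip and Htr3a interneuron genes that holds Cck summed to 302 and 470 CPM in DBA libraries, against 252 and 241 CPM in BL6 libraries, Cck included. Its defining members Vip and Htr3a were at or near 0 in all 4 columns, and Synpr, at 1520 CPM in Inh-Htr3a, had 10.3 and 10.7 CPM in DBA libraries and 14.96 and 28.7 CPM in BL6 libraries. The part of such nuclei in the Cck values was not tested. The peak on the Cck promoter printed above had 20.4 and 25.4 CPM in DBA libraries and 16.5 and 6.70 CPM in BL6 libraries. Its log2 fold change was 1.03 ± 0.39 and was not called (edgeR adjusted p = 0.428).

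Whether a strain difference of Inh-Lamp5 differed in size from that of other types was asked with the same fit of Inh-Lamp5 against the sum of the other inhibitory types. The mix of types in that sum differed between libraries. BL6 library 2 held 714 Inh-Nxph2 and 596 Inh-Tshz1 RNA nuclei, and BL6 library 3 held 176 and 376. The part of this mix in the coefficients was not tested. Over 16667 genes, 49 (0.294%) were called, 23 (0.138%) with a more positive difference in Inh-Lamp5 and 26 (0.156%) with a more negative one. With DESeq2's size factors the split was 29 and 21, and with total counts alone 28 and 23. Among only the genes tested in Inh-Lamp5 itself, a setting added after the data were seen, 9 were called, all of them also among the 49. These were Chrna7, Hmgb1 and Arhgap26 on the positive side and Col19a1, Pde11a, Chn2, Trpm3, Stab2 and 9130019P16Rik on the negative side. Their edgeR adjusted p in this narrower fit ran from 0.00250 for Chrna7 and Col19a1 to 0.0262 for Chn2 and Trpm3. Cck, with a coefficient of 2.32 ± 0.28 and an edgeR adjusted p of 2.14e-12 in the wider fit, had an adjusted p of 0.200 in the narrower one, and of 0.371 when only Inh-Sst and Inh-Htr3a were the comparison.

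Col19a1 and Pde11a differed in the opposite way to Chrna7. Col19a1, a collagen known from some interneurons, at chr1:24257683-24587922, had 90.4 and 73.0 CPM in DBA libraries, against 276 and 205 CPM in BL6 libraries of Inh-Lamp5. In the other inhibitory types it had 153 and 124 CPM in DBA libraries, against 98.2 and 109 CPM in BL6 libraries. The order of the strains thus differed between Inh-Lamp5 and this sum, and the coefficient was -2.04 ± 0.23 (edgeR adjusted p = 6.29e-15, and 0.00250 in the narrower fit). Taken singly, Col19a1 rose with a call only in Inh-Htr3a (log2 fold change 0.66) and Inh-Sst (0.61). It was not called in Inh-Tshz1 (0.46), Inh-Zfhx3 (-0.01), Inh-Nxph2 (-0.21), Inh-Lypd6b (-0.29) or Inh-Drd2 (-1.02). Pde11a, a phosphodiesterase that breaks down cAMP and cGMP, at chr2:75985808-76339145, had 171 and 152 CPM in DBA libraries, against 403 and 466 CPM in BL6 libraries of Inh-Lamp5. The other types had 33.2 and 34.9 CPM in DBA libraries, against 35.1 and 23.99 CPM in BL6 libraries. The coefficient for Pde11a was -1.63 ± 0.21 (edgeR adjusted p = 2.04e-11, and 0.0119 in the narrower fit). Both calls held with each library left out and against Inh-Sst and Inh-Htr3a alone.

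Chn2 and Trpm3 were also lower in DBA in Inh-Lamp5, with calls that depended more on the setting. Chn2, a Rac-directed GTPase activator, had 39.1 and 49.4 CPM in DBA libraries, against 169 and 126 CPM in BL6 libraries of Inh-Lamp5. In the other types it had 129 and 142 CPM in DBA libraries, against 130 and 157 CPM in BL6 libraries. Its coefficient was -1.75 ± 0.27 (edgeR adjusted p = 1.99e-07), with an adjusted p of 0.0666 without BL6 library 2. The non-coding gene 9130019P16Rik overlaps Chn2 in the annotation, and whether counting used strand is not given in the sources used here, so their reads may not be separable. The coefficient of 9130019P16Rik was -1.55 against Inh-Sst and Inh-Htr3a alone (edgeR adjusted p = 0.521), and the gene also fell in Inh-Sst, by 1.11 (edgeR adjusted p = 0.00323). Trpm3, a cation channel, had 30.8 and 53.7 CPM in DBA libraries, against 90.9 and 137 CPM in BL6 libraries of Inh-Lamp5. In the other types Trpm3 had 1073 and 989 CPM in DBA libraries, against 748 and 885 CPM in BL6 libraries. The Trpm3 coefficient was -1.77 ± 0.28 (edgeR adjusted p = 5.86e-07), with an adjusted p of 0.623 against Inh-Sst and Inh-Htr3a alone.

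For Hmgb1, Stab2 and Arhgap26 the strains differed in the same direction in both classes and by unequal amounts. Hmgb1, a chromatin protein, had 317 and 300 CPM in DBA libraries, against 58.7 and 66.3 CPM in BL6 libraries of Inh-Lamp5. In the other types Hmgb1 had 129 and 136 CPM in DBA libraries, against 70.9 and 66.0 CPM in BL6 libraries. Its coefficient was 1.36 ± 0.23 (edgeR adjusted p = 7.23e-06), with an adjusted p of 0.0918 without BL6 library 2. The peak at the start of Hmgb1 had a log2 fold change of -0.10 ± 0.18 (edgeR adjusted p = 0.961). Stab2, a scavenger receptor for hyaluronan, had 218 and 255 CPM in DBA libraries, against 25.3 and 24.3 CPM in BL6 libraries of Inh-Lamp5. In the other types Stab2 had 177 and 200 CPM in DBA libraries, against 3.61 and 5.02 CPM in BL6 libraries. Its coefficient was -2.31 ± 0.35 (edgeR adjusted p = 1.99e-07), and without BL6 library 2 the adjusted p was 0.159. Arhgap26, a GTPase activator, had 109 and 83.7 CPM in DBA libraries, against 269 and 223 CPM in BL6 libraries of Inh-Lamp5. In the other types Arhgap26 had 48.8 and 44.9 CPM in DBA libraries, against 338 and 333 CPM in BL6 libraries. Its coefficient of 1.45 ± 0.24 (edgeR adjusted p = 2.13e-06) turned to -0.20 against Inh-Sst and Inh-Htr3a alone (adjusted p = 0.986).

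**Figure D5:**
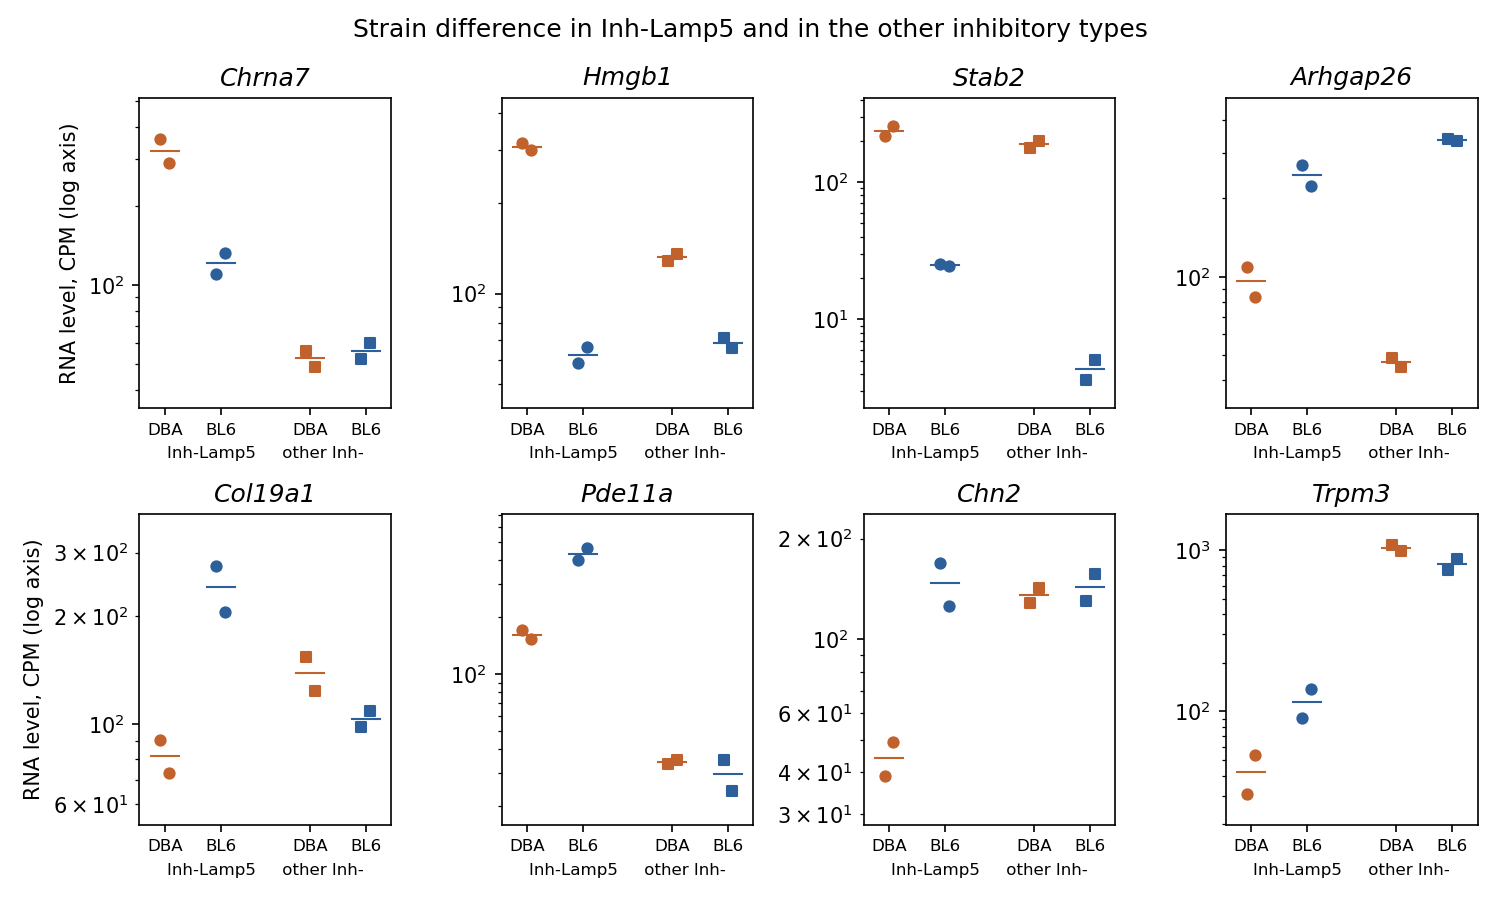
RNA level in CPM (log axis, scale differs by panel) of 8 genes in the 2 libraries of each strain, with circles for Inh-Lamp5, squares for the sum of the other inhibitory types and lines for means. Chrna7 stands at 358 and 290 CPM in DBA and 110 and 133 CPM in BL6 in Inh-Lamp5, while Stab2 and Arhgap26 differ in both classes.

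The largest strain differences of Inh-Lamp5 RNA were shared with other inhibitory types. Of the 10 leading genes that rose, 8 also rose in each of the other 7 types, all but Cck and Hmgb1. Of the 10 leading genes that fell, 7 also fell in each of the other 7. Atp5o, part of the enzyme that makes ATP in mitochondria, had 438 and 395 CPM in DBA libraries, against 31.1 and 37.5 CPM in BL6 libraries (log2 fold change 3.65 ± 0.23, edgeR adjusted p = 1.04e-06). Mlycd, a decarboxylase of malonyl-CoA, had 74.0 and 85.8 CPM in DBA libraries, against 10.4 and 6.63 CPM in BL6 libraries (3.14 ± 0.37, edgeR adjusted p = 0.000506). Rnf121, Pisd, Sfi1, Cfap54 and Sav1 rose by 1.94 to 3.01, though Sav1 was not called by DESeq2 (adjusted p = 0.215). Pisd and Sfi1 have near-identical copies in the mouse genome, so their counts are uncertain.

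Those that fell were nearly absent from the DBA columns. Rhbdl1, a rhomboid protease, had 0 counts in both DBA libraries, against 78.3 and 92.8 CPM in BL6 libraries, and was at least 26.4-fold lower in DBA against a floor of 3 counts over the strain. Rnasek, a ribonuclease, was likewise at 0 in both DBA libraries and at least 17.3-fold lower. Cox16, an assembly factor of cytochrome oxidase, had 8.22 and 8.58 CPM in DBA libraries, against 270 and 292 CPM in BL6 libraries (log2 fold change -5.00 ± 0.31, edgeR adjusted p = 1.04e-06). Tek, Adnp and Cpne1 had 0 to 2 counts per DBA library. Without BL6 library 2 their edgeR adjusted p was 0.0839, 0.222 and 0.365, and none was called. Whether each strain's own sequence entered the counting is not given in the sources used here. Earlier results of these data showed that the strains were counted under partly different gene names. The part of such counting in these differences was not tested. ATAC peaks at the ends of Rhbdl1, Cox16 and Atp5o were not called. Those of Rhbdl1 had log2 fold changes of 0.12 ± 0.19 and -0.09 ± 0.28, that of Cox16 0.31 ± 0.31 and that of Atp5o -0.17 ± 0.29, with edgeR adjusted p of 0.898 to 0.982.

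Most mitochondrially encoded genes fell. Of 12 tested, 8 fell, 0 rose and 4 were not called. mt-Co3, a cytochrome oxidase subunit, had 0 and 1 counts in DBA libraries, against 966 and 611 counts in BL6 libraries, a BL6 over DBA ratio of 1137 with an exact 95% counting interval of 204 to 44921. The gene mt-Atp6, an ATP synthase subunit, had 6.17 and 4.29 CPM in DBA libraries, against 1051 and 1190 CPM in BL6 libraries. mt-Cytb, not called, had 78.1 and 300.4 CPM in DBA libraries, against 575 and 709 CPM in BL6 libraries. The fall differed between these genes. mt-Co2 had 0 and 1 counts in DBA libraries, against 638 and 406 counts in BL6 libraries. mt-Nd2 had 33 and 87 counts in DBA libraries, against 430 and 269 counts in BL6 libraries. In the other inhibitory types mt-Co3 fell as well, with log2 fold changes from -7.97 in Inh-Tshz1 to -12.5 in Inh-Drd2. Mitochondrial RNA is made outside the nucleus, and its part in the other differences was not tested. Of 57 tested cytosolic ribosomal protein genes, Rpl27a, Rps10, Rpl24 and Rpl13a fell and 53 were not called, and the median log2 fold change of the 57 was -0.45. In DESeq2 the adjusted p of these 4 genes was 0.102 to 0.678. Of 7 tested heat shock genes Hspa8, a constitutive chaperone, fell, with 32.9 and 47.2 CPM in DBA libraries, against 117 and 113 CPM in BL6 libraries (log2 fold change -1.50 ± 0.26, edgeR adjusted p = 0.00806), though not by DESeq2 (adjusted p = 0.200).

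Markers of non-neuronal cells gave mixed values. P2ry12, a microglial receptor, had 148 and 170 CPM in DBA libraries and 177 and 179 CPM in BL6 libraries. The microglial genes Csf1r, C1qa, C1qb, C1qc and Tmem119 were at 0 in both DBA libraries and had 0 to 7 counts per BL6 library. The 7 oligodendrocyte genes summed to 30.8 and 57.9 CPM in DBA libraries, against 139 and 119 CPM in BL6 libraries, and the 10 vascular genes, Tek included, to 2.06 and 19.3 CPM in DBA libraries, against 89.8 and 53.0 CPM in BL6 libraries. The 7 astrocyte genes overlapped, at 310 and 296 CPM in DBA libraries and 296 and 351 CPM in BL6 libraries. The oligodendrocyte and vascular sums were also lower in both DBA libraries of Inh-Sst and Inh-Htr3a. In Inh-Sst the oligodendrocyte genes had 61.8 and 55.7 CPM in DBA libraries, against 122 and 111 CPM in BL6 libraries. The vascular genes had 8.21 and 13.8 CPM there in DBA libraries, against 39.2 and 42.2 CPM in BL6 libraries. The part of non-neuronal cells in the strain differences was not tested.

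Chromatin accessibility differed between strains at few peaks of Inh-Lamp5. Of 24473 peaks tested, 103 (0.421%) were called by edgeR, 54 (0.221%) higher and 49 (0.200%) lower in DBA. Of these, 4 lay on unplaced scaffolds, where all 4 tested peaks were lower in DBA. The strongest losses were peaks with no count in DBA. The peak at 15616 to 17506 on the scaffold GL456216.1 had 0 counts in both DBA libraries and 176 and 157 CPM in BL6 libraries, at least 83.3-fold lower in DBA. The strongest gains were peaks with no count in BL6, led by one on chromosome Y at chrY:90828402-90829285, with 42.0 and 34.9 CPM in DBA libraries and 0 in both BL6 libraries, at least 37.2-fold higher. Among 114 genes named by rule that had a tested peak inside or within 2 kb, 342 peaks were tested and 3 called. All 3 lay at Sfi1, and the largest, at chr11:3192711-3193843, had 361 and 337 CPM in DBA libraries, against 27.2 and 47.5 CPM in BL6 libraries (log2 fold change 3.17 ± 0.16, edgeR adjusted p = 1.38e-30). The near-identical copies of Sfi1 leave these values uncertain too. Peaks at the annotated starts of Chrna7, Col19a1 and Pde11a, whose RNA differed, had log2 fold changes of -0.10 ± 0.31, 0.17 ± 0.31 and -0.36 ± 0.43 and were not called (edgeR adjusted p = 0.982, 0.961 and 0.922). The difference between Inh-Lamp5 and the other inhibitory types in strain effect was called at 7 of 226421 peaks (0.00309%), all more negative, but among only the peaks tested in Inh-Lamp5 itself 10 were called, of which 9 were more positive. The median over all peaks was -0.27 in that fit, and 8252 peaks had an unadjusted p under 0.05. With DESeq2's size factors or with total counts alone 0 peaks were called by edgeR, with 6315 and 5964 at an unadjusted p under 0.05.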

How the data were processed

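The tables held counts per gene (RNA) and per peak (ATAC), added up by the authors within each cell type of a library, as deposited; a column's name gives strain and library number, not the single sample. Peak positions are printed as the table has them. Cell Ranger 6.0.2, Cell Ranger ATAC 2.0.0, Seurat 4.0.5 and the build mm10 are named in the submitters' processing notes. Filters on nuclei, the treatment of doublets, the peak caller, the annotation and the use of strand are not given in the sources used here. Members and gene lists were chosen with earlier results of these data known. The methylation libraries were not analysed here. The strain result of 1 listed gene is not reported here.

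Genes needed 10 counts in each strain over all nuclei, because earlier results showed the strains counted under partly different gene names. Strains were compared with edgeR 4.0.16 (R 4.3.3, limma 3.58.1), using filterByExpr with a minimum count of 10, TMM factors, robust quasi-likelihood tests and Benjamini-Hochberg adjustment at 0.05. The fit of Inh-Lamp5 beside the summed other inhibitory types had the library as a block. DESeq2 1.42.0 was an alternative, with other scalings, filters, thinning to equal depth and each library left out. On simulated counts of 7536 genes the strain test recovered 46.8% of genes changed 2-fold and 95.7% of those changed 4-fold, and 3.65% of its calls were false. On 24840 simulated peaks it recovered 23.6% and 84.9%. Intervals cover counting error only.

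The genes named were the 10 highest and 10 lowest called with a mean log2 CPM of at least 5, unambiguous symbols and strains that did not overlap, up to 4 genes of smallest p per list with every Lamp5 interneuron gene, 8 genes each way that differed between Inh-Lamp5 and the other types, and the 15 genes of at least 50 CPM furthest above the next type. Peaks named were 5 called each way with a mean log2 CPM of at least 3, called peaks within 2 kb of those genes, and the 10 peaks furthest above the next type. Gene and promoter positions come from RefSeq tables of GRCm38.p6.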

Additional observations from a re-analysis of the deposited data

Results flagged for a closer look

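The genes below are those whose strain difference differed between Inh-Lamp5 and the sum of the other inhibitory types in the edgeR fit over 16667 genes, where the difference itself was tested. Coefficients are the log2 fold change of DBA over BL6 in Inh-Lamp5 minus that in the other types. Of the genes described above, the positive ones were Cck (2.32), Chrna7 (1.49), Arhgap26 (1.45) and Hmgb1 (1.36). The negative ones were 9130019P16Rik (-2.60), Stab2 (-2.31), Col19a1 (-2.04), Trpm3 (-1.77), Chn2 (-1.75) and Pde11a (-1.63).

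Schip1, a scaffold protein, had a coefficient of 2.30, with 12.3 and 19.3 CPM in DBA libraries, against 160 and 139 CPM in BL6 libraries of Inh-Lamp5, and 24.1 and 19.4 CPM in DBA libraries, against 990 and 1115 CPM in BL6 libraries of the other types. It was thus lower in DBA in both classes. Nr4a3, an orphan nuclear receptor induced by activity, had 2.06, with 34.9 and 98.7 CPM in DBA libraries, against 39.1 and 28.7 CPM in BL6 libraries of Inh-Lamp5, which overlap. Arhgap29, a GTPase activator, had 1.73, with 101 and 161 CPM in DBA libraries, against 69.1 and 55.2 CPM in BL6 libraries of Inh-Lamp5. Ntng1, an axon guidance protein, had 1.75, on 21 and 18 counts in DBA libraries, against 12 and 4 counts in BL6 libraries. Cntnap5b, of the neurexin superfamily, had 1.63, on 59 and 16 counts in DBA libraries, against 18 and 4 counts in BL6 libraries. Without DBA library 2 the Cntnap5b coefficient was 0.51. Atp10a, a lipid flippase, had 3.63 on 0 to 8 counts per library.

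Rassf3 had the most negative coefficient of the named genes, -4.04, with 1 count in each DBA library, against 39 and 22 counts in BL6 libraries of Inh-Lamp5, and 4.35 and 3.95 CPM in DBA libraries, against 6.02 and 5.13 CPM in BL6 libraries of the other types. Ypel2 had -1.91, on 2 and 10 counts in DBA libraries, against 43 and 19 counts in BL6 libraries. Pstpip2 had -2.98, on 0 and 4 counts in DBA libraries, against 15 and 14 counts in BL6 libraries. Atp6ap1l had -2.28, on 4 and 8 counts in DBA libraries, against 21 and 8 counts in BL6 libraries.

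Among only the genes tested in Inh-Lamp5 itself, 7 of these 10 genes were tested and none was called, with edgeR adjusted p from 0.0759 for Nr4a3 to 0.814 for Cntnap5b. Each of the 10 lost its call in the wider fit without at least 1 of the 4 libraries.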

How the results depend on the processing

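The strain calls of Inh-Lamp5 RNA, 132 in all, numbered 132 with DESeq2's size factors, 130 with total counts alone and 153 on thinned columns. They numbered 298 with no filter on low counts, 378 with every gene of the table, 80 with a minimum count of 30 and 59 with DESeq2, of which 56 were among the 132. With 1 library left out they ranged from 138 (without BL6 library 2) to 247 (without DBA library 3). The 49 RNA calls that set Inh-Lamp5 against the other types became 23 with a minimum count of 30, 19 against Inh-Sst and Inh-Htr3a alone and 9 among genes tested in Inh-Lamp5, and 25 to 51 with 1 library left out, fewest without BL6 library 2. Arhgap26 turned to -0.20 against Inh-Sst and Inh-Htr3a, and the cause was not tested. The 103 ATAC strain calls became 40 with a minimum count of 30, 30 with DESeq2, 43 on thinned columns and 43 to 94 with 1 library left out. The 7 ATAC calls against the other types became 0 with DESeq2's size factors, with total counts alone and with a minimum count of 30, 11 with no filter, 2 against Inh-Sst and Inh-Htr3a, both positive and neither among the 7, and 0 to 2 with 1 library left out. Among peaks tested in Inh-Lamp5 they numbered 10, of which 9 were positive. The share of Inh-Lamp5 among inhibitory nuclei, DBA minus BL6, stayed negative, at -1.83 to -0.69 percentage points in RNA and -2.47 to -1.94 in ATAC with 1 library left out.

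Whether library numbers pair the samples is not known. The deviations of same-numbered libraries correlated at -0.0475 in RNA and 0.00116 in ATAC. Columns of so few nuclei carry much counting error, so values near 0 cannot show that a pairing is absent. With the number as a replicate block there were 84 RNA calls, 79 of them among the 132, and 107 ATAC calls. Over single named genes, 1226 RNA strain values kept their side of the threshold, 59 newly passed it and 22 no longer did. Values called in neither the main nor the other setting were counted as kept whatever their direction. The class held 29 to 90 RNA nuclei per library, and this depth limits what could be called among genes of low count. The settings restricted to features tested in Inh-Lamp5 were chosen after seeing the data.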
